A study of Mus musculus with 3 samples.

Results

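The 9 genes described here encode laminin chains and nidogens: the alpha chains Lama3, Lama4 and Lama5, the beta chains Lamb1, Lamb2 and Lamb3, the gamma chain Lamc1 and the nidogens Nid1 and Nid2. They were chosen as a list and found by symbol among 19070 measured features, and all 9 were present. Their UMIs, the molecules counted after probe capture, were summed over the cells of each cell class in each of 3 single-cell libraries of mouse skin wounds. The skin came from female C57BL/6J mice given a splinted wound of 5 mm through all skin layers on the dorsal midline at postnatal day 50, and was collected on day 5. The AN-GelMA wound received 20 µL of gelatin methacryloyl, a light-cured gelatin hydrogel, loaded with apoptotic neutrophils; the labels do not say how apoptosis was brought about. The GelMA wound received the same volume of hydrogel without cells, both gels were cured for 1 min under ultraviolet light, and the untreated wound received no gel. There was 1 library per group and the labels do not give the number of animals in a library, so no difference below has a replicate check and none has a p-value. Brackets hold exact 95% counting intervals, which cover counting error only.

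Laminins are heterotrimers of an alpha, a beta and a gamma chain that polymerise into the sheet on which basement membranes are built, and nidogens bind the laminin gamma 1 chain and link laminin to type IV collagen. In skin the chains of Lama3 and Lamb3 belong to a trimer that anchors basal keratinocytes to the dermis through the integrins of the hemidesmosome. The chains of Lama4 and Lama5, assembled with a chain of Lamb1 or Lamb2 and with that of Lamc1, belong to the basement membrane of blood vessels, and related trimers wrap muscle fibres, fat cells and nerves.

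The AN-GelMA, GelMA and untreated libraries held 9094, 10687 and 5721 cells after filtering. Classes were named from marker genes, so each name means cells like that type. The endothelial class had 339, 410 and 380 cells, the basal keratinocyte class 1289, 828 and 712, the mural class of pericytes and smooth muscle 66, 100 and 102, and the skeletal muscle class 166, 812 and 174. In each library at least 13 of 14 endothelial, 7 of 7 basal keratinocyte, 11 of 13 mural and 15 of 15 muscle markers reached 50 CPM, the UMIs of a gene scaled to 1e6 UMIs of its class, in their own class. Fibroblasts made up 15.4%, 3.87% and 11.7% of cells, and cells of the hair matrix, root sheath or shaft 0.528%, 25.5% and 3.50%. Unnamed clusters held 30.5%, 29.1% and 31.3% of cells. One of them, led by Tnn and Col12a1 with 623, 230 and 392 cells, scored best for fibroblast markers and was left outside the fibroblast class. The GelMA library stood apart in make-up, and the libraries shared 94 to 135 cell barcodes in pairs.

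Promoters of 5 of the 9 genes were kept from a RefSeq table (GRCm38.p6) filtered by chromosome. A gene without a promoter here was therefore not necessarily absent from that table. Those of 3 genes with contrasting cell patterns are shown: Lamb3, which was highest in basal keratinocytes, Lama5, which was counted in all 4 classes, and Nid1, which was counted mainly in stromal and vascular cells. Each is the 250 bases before the annotated start, 5′ to 3′ on the coding strand, with GC boxes (GGGCGG on either strand) in capitals.
Lamb3, chr1:193301744-193301993, plus strand: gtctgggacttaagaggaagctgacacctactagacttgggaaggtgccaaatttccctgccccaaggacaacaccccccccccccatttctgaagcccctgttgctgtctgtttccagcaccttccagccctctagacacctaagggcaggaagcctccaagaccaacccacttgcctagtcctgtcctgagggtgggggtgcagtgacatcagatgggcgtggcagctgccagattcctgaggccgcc
Lama5, chr2:180225860-180226109, minus strand: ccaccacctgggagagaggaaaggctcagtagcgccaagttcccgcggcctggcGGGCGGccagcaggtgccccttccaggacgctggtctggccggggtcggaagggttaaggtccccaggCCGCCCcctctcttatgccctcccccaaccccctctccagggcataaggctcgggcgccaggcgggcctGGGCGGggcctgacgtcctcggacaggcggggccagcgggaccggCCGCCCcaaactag
Nid1, chr13:13437352-13437601, plus strand: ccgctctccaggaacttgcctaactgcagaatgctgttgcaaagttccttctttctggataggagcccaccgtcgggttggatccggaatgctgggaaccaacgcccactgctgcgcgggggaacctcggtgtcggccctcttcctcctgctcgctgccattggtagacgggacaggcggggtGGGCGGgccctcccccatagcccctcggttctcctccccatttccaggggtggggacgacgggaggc
The Lama5 window held 4 GC boxes, the Nid1 window held 1, at 67 bases before the start, and the Lamb3 window held 0. Lamb3 had another annotated start, whose window (chr1:193301993-193302242, not shown) also held 0 GC boxes, with 61.2% GC. GC boxes were present in 32.7% of the 32851 promoter windows in the table. The AP-1 consensus TGANTCA, present in 6.75% of windows on either strand, and the letters TATAAA, present in 12.4%, were found in none of the 3 windows shown. GC content was 58.8% for the Lamb3 window shown, 72.4% for Lama5 and 64.4% for Nid1, against a median of 52.4% over all windows. Of the genes kept but not shown, Lamb1 had 2 GC boxes and 62% GC, and Lamb2 had 0 GC boxes and 43.6% GC. Lamb2 was, like Lama5, counted in all 4 classes. A relation between GC boxes and cell pattern was not tested.

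Lama3 and Lamb3 were highest in basal keratinocytes in every library. Lama3 stood at 584 CPM [548 to 621], 602 CPM [558 to 648] and 673 CPM [624 to 726] in the AN-GelMA, GelMA and untreated wounds. Lamb3 stood at 409, 401 and 452 CPM in the same order of wounds. For both genes the range over libraries in basal keratinocytes did not overlap that of any other of the 11 classes with at least 50 cells in every library. By the median over libraries the upper follicle came next for Lama3, at 159.6, 103 and 214 CPM. Its range overlapped that of the class after it, T, NK or innate lymphoid cells. Suprabasal keratinocytes, which have left the basement membrane, had 11.5, 19.4 and 19.7 CPM of Lama3 and 5.75, 11.1 and 6.57 CPM of Lamb3.

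Neither chain differed by 1.5-fold between wounds in this class as clustered. For Lama3 the log2 ratio was -0.04 [-0.18 to 0.10] for AN-GelMA over GelMA, -0.16 [-0.32 to -0.01] for GelMA over untreated and -0.21 [-0.35 to -0.06] for AN-GelMA over untreated. The Lamb3 ratios were 0.03, -0.17 and -0.14 in the same comparisons, which share libraries. With each cell named on its own rather than by cluster, Lamb3 passed that size, at 0.70 for AN-GelMA over GelMA and -0.78 for GelMA over untreated. Of the 7 members with at least 20 UMIs in the class, 0 were 1.5 times higher or lower in any of the 3 comparisons, whereas 22.0%, 22.2% and 9.20% of all features with as many UMIs were. Lama5, the alpha chain of most epithelial basement membranes, was at 359, 291 and 348 CPM, and Lamc1 at 148, 119 and 146 CPM. Before thinning, 43.3, 45.9 and 49.0% of basal keratinocytes held a Lama3 UMI, and after thinning each cell to 500 UMIs 23.9, 23.6 and 26.5% did. Hair marker transcripts summed to 102, 1274 and 197 CPM in the class.

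The same chains varied more among basal keratinocytes than among wounds. Sub-clusters were drawn without the 9 genes or other basement membrane genes, and the one led by Mmp13, a collagenase, and F3, tissue factor, held 102, 63 and 55 cells. Its Lama3 level was 992 CPM [842 to 1162], 1316 CPM [1104 to 1557] and 1355 CPM [1124 to 1621] in the AN-GelMA, GelMA and untreated wounds, and its Lamb3 level was 638, 794 and 791 CPM. The sub-cluster led by Pyy and Igfbp3 had 571, 605 and 673 CPM of Lama3, and the cycling sub-cluster led by Aspm and Hmmr 469.7, 467 and 589.8 CPM. In each library the Mmp13 sub-cluster was the highest for Lama3 and Lamb3 among the 5 sub-clusters with at least 50 cells in every library. For Lama5 the counting intervals of the Mmp13 sub-cluster overlapped those of another in each library: its level was 535, 329 and 440.5 CPM there and 439, 285 and 501 CPM in the sub-cluster led by Fst and Penk.

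**Figure D1:**
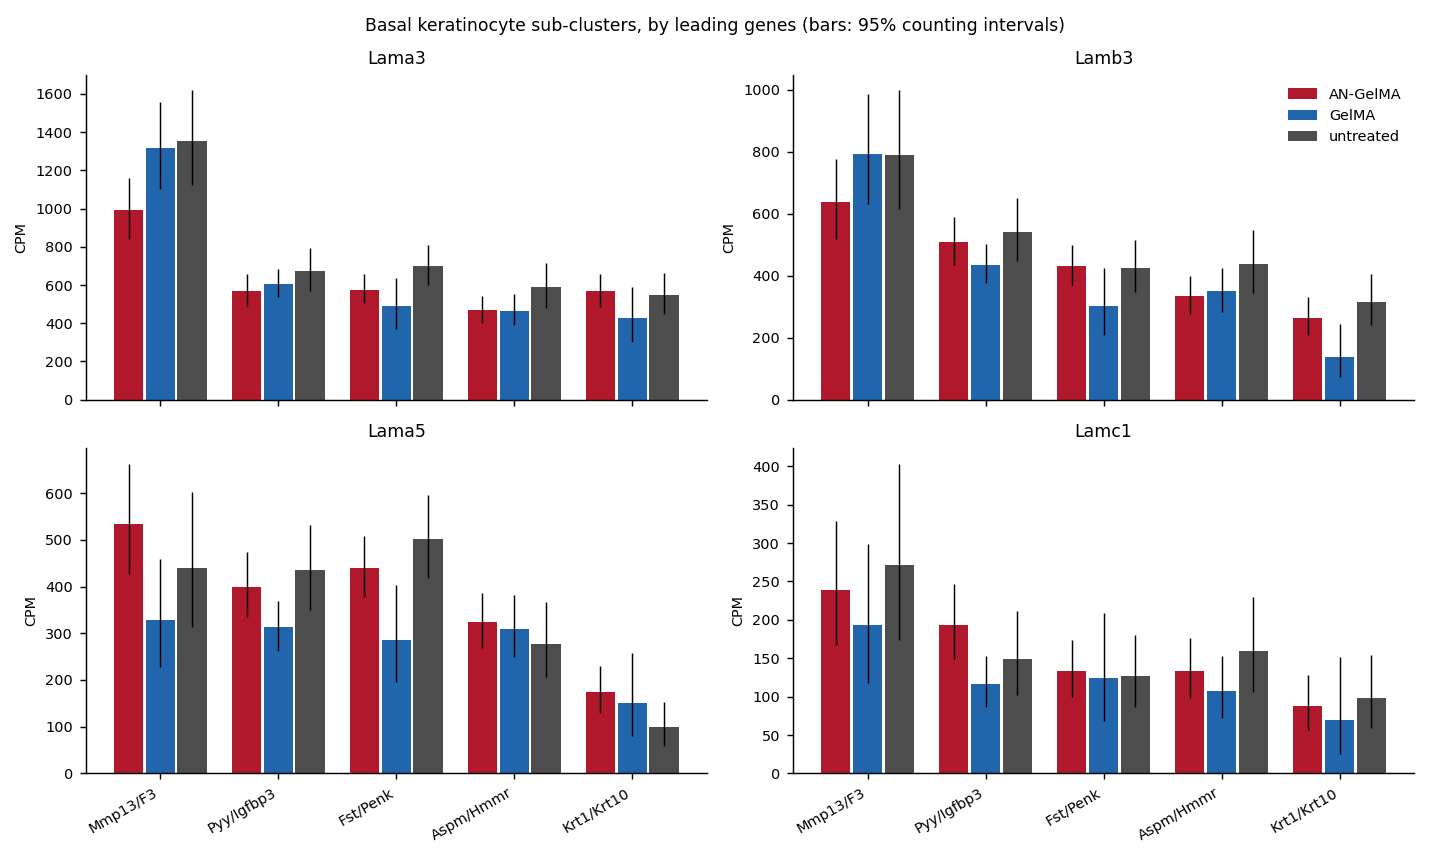
CPM of Lama3, Lamb3, Lama5 and Lamc1 in 5 basal keratinocyte sub-clusters, named by leading genes; bars are the AN-GelMA, GelMA and untreated libraries and lines the 95% counting intervals. The Mmp13 and F3 sub-cluster, at 992 to 1355 CPM of Lama3, is above the other sub-clusters in each library.

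Lama3 and Lamb3 were in unlike shares in some basal keratinocyte sub-clusters, with separate counting intervals in the AN-GelMA wound. Probes of different genes are not equally efficient, so a share of one chain serves to compare cells with cells and says nothing of the amounts of the chains. Lama3 made up 58.8, 60.0 and 59.9% of the Lama3 and Lamb3 UMIs of the whole class in the AN-GelMA, GelMA and untreated wounds. In the sub-cluster led by Krt1 and Krt10, keratins of cells leaving the basal layer, the share was 68.1% [62.0 to 73.9], 75.5% [61.1 to 86.7] and 63.5% [55.7 to 70.8]. In the Pyy and Igfbp3 sub-cluster it was 52.9% [47.6 to 58.2], 58.2% [53.5 to 62.7] and 55.4% [49.1 to 61.5]. The share was higher in the Krt1 and Krt10 sub-cluster in each library. The intervals of those sub-clusters were apart in the AN-GelMA wound and overlapped in the GelMA and untreated wounds. Overlap of intervals does not show that shares were equal, and the difference was not tested in any wound. In the AN-GelMA wound the sub-clusters led by Aspm, by Fst and by Mmp13 were between them, at 58.4, 57.2 and 60.9%. Lama4 had a small site of its own: a sub-cluster of 23, 11 and 15 cells led by Edar, a receptor of hair placode development, had 476 CPM of Lama4 from 27 UMIs over the 3 libraries, whereas the whole class had 35.1, 26.9 and 24.0 CPM.

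Lama3 also occurred in blood vessels, almost without Lamb3. The endothelial class, from which lymphatic cells were removed, had 47, 54 and 39 Lama3 UMIs in the AN-GelMA, GelMA and untreated wounds, which is 128, 141 and 92.0 CPM, and 2, 1 and 4 Lamb3 UMIs. Lama3 made up 95.9, 98.2 and 90.7% of the pair there. In endothelial cells with no UMI of the basal keratins Krt5 or Krt14 the Lama3 level was 129, 153 and 92.0 CPM. T, NK or innate lymphoid cells had 142, 44.2 and 197 CPM of Lama3, but with 51.0, 53.1 and 174 CPM of Lamb3 beside it.

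Among endothelial sub-clusters Lama3 was highest in the one led by Hey2, Gja5 and Gkn3, genes of arterial endothelium, with 433 CPM [237 to 726], 459 CPM [281 to 709.6] and 342 CPM [164 to 629] from 33, 43 and 30 cells. The sub-cluster led by Ackr1 and Selp, genes of venules, had 65.3, 63.5 and 59.5 CPM of Lama3. The 2 sub-clusters' intervals did not overlap in any library. The arterial-type sub-cluster held 44 Lama3 UMIs over the libraries and 0 Lamb3 UMIs. Lama5 was at 649, 988 and 513 CPM in that sub-cluster and at 425, 517 and 387 CPM in venule-type cells.

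**Figure D2:**
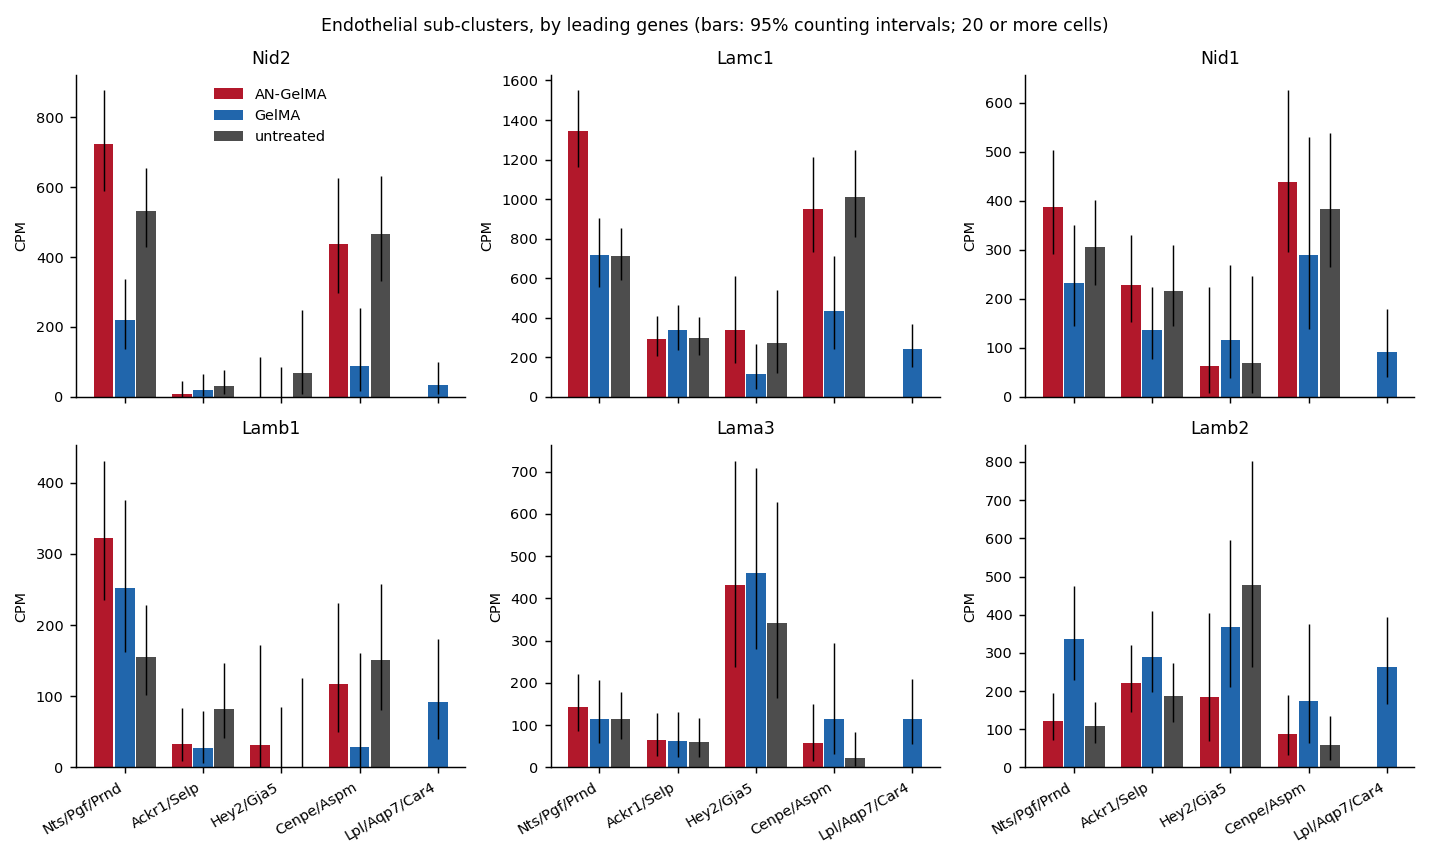
CPM of 6 members in endothelial sub-clusters, named by leading genes; bars are the AN-GelMA, GelMA and untreated libraries with 20 or more cells, and lines the 95% counting intervals. Nid2 is at 221 to 723 CPM in the Nts, Pgf and Prnd sub-cluster and at 8.17 to 29.8 CPM in the Ackr1 and Selp one, whereas Lama3 is highest in the Hey2 and Gja5 one.

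Nid2 had the widest difference between wounds among the endothelial members. It had 132, 31 and 135 UMIs in the AN-GelMA, GelMA and untreated wounds, which is 359 CPM [300.1 to 425], 80.8 CPM [54.9 to 115] and 318 CPM [267 to 377]. The GelMA wound was the low one, and its interval did not overlap the others. Nid2 was 4.44-fold higher in AN-GelMA than in GelMA, a log2 ratio of 2.15 [1.58 to 2.76]. The log2 ratio was -1.98 [-2.59 to -1.41] for GelMA over untreated and 0.17 [-0.19 to 0.53] for AN-GelMA over untreated. A Nid2 UMI was held by 18.9, 4.63 and 20.5% of endothelial cells, and by 12.7, 2.93 and 12.1% after thinning to 500 UMIs. In T, NK or innate lymphoid cells the thinned shares were 3.14, 4.63 and 5.26%, so the GelMA endothelial share did not exceed that of a leukocyte class. Langerhans cells held 0 Nid2 UMIs in each library, which allows up to 26.3, 18.5 and 25.6 CPM.

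Nid1 and Lamc1 had the same order of wounds in the endothelial class. Nid1 was at 318, 164 and 281 CPM and Lamc1 at 821, 391 and 606 CPM in the AN-GelMA, GelMA and untreated wounds. The log2 ratio for AN-GelMA over GelMA was 0.95 [0.50 to 1.42] for Nid1, 1.07 [0.78 to 1.36] for Lamc1 and 0.77 [0.15 to 1.41] for Lamb1, which was at 160.3, 93.9 and 118 CPM. Lamb2 ran the other way, at 152, 289 and 146 CPM, with a log2 ratio of -0.93 [-1.42 to -0.45]. The alpha chains were within 1.5-fold in that comparison: Lama4 was at 247, 229 and 205 CPM and Lama5 at 369.5, 475 and 335 CPM.

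Of the 8 endothelial members with at least 20 UMIs, 4 were at least 1.5 times higher and 1 was lower in AN-GelMA than in GelMA. Of 7530 features 30.1% were past that size, 13.5% higher and 16.6% lower. The members' median log2 ratio was 0.44, against -0.02 over all features. For GelMA over untreated Lamb2 and Lama3 were higher and Nid2, Nid1 and Lamc1 lower, with 29.4% of features past that size (16.9% higher and 12.5% lower) and a members' median of -0.08. The Lama3 ratio of 0.61 [-0.01 to 1.25] included no difference and was -0.11 after thinning to 500 UMIs. For AN-GelMA over untreated 0 of 8 were past 1.5-fold, with 19.1% of features past it and a members' median of 0.22. Hair marker transcripts summed to 35.3, 1017 and 59.0 CPM in the endothelial class of the AN-GelMA, GelMA and untreated wounds, and their part in these differences was not tested.

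**Figure D3:**
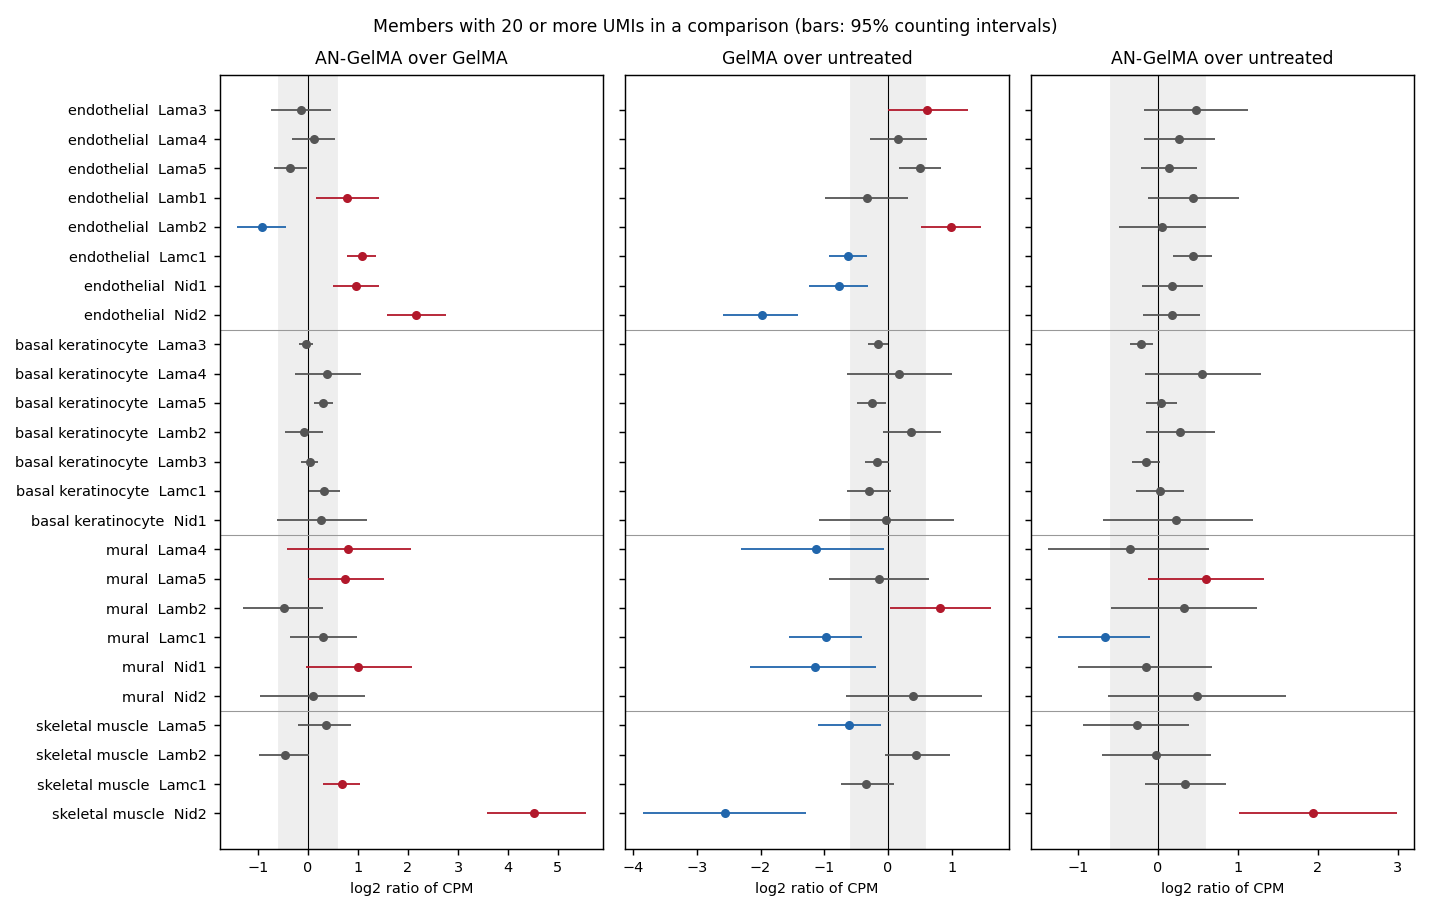
Log2 ratios of CPM for members with 20 or more UMIs, by class (rows) and comparison (panels); points are ratios, red higher and blue lower by 1.5-fold, lines are 95% counting intervals and the grey band spans 1.5-fold either way. Basal keratinocyte points all lie inside the band, while Nid2 in endothelium and muscle lies outside it in AN-GelMA over GelMA and in GelMA over untreated.

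The endothelial class did not hold the same vessel types in each wound. A sub-cluster led by Stxbp6, Lpl, Aqp7 and Car4, of which Car4 and Lpl are genes of capillaries, had 2, 111 and 3 cells, and its Nid2 level in the GelMA wound was 34.2 CPM. The sub-cluster led by Nts, Pgf, Prnd and Adamts7, of which Pgf is a ligand of a vascular endothelial growth factor receptor, made up 34.2%, 22.4% and 38.7% of endothelial cells. It held 101, 21 and 89 of the Nid2 UMIs, at 723 CPM [589 to 878], 221 CPM [137 to 338] and 533 CPM [428 to 656]. Venule-type cells had 8.17, 18.1 and 29.8 CPM of Nid2, and the cycling sub-cluster led by Cenpe and Aspm 438, 86.6 and 465 CPM. The venule-type levels came from 1 Nid2 UMI in AN-GelMA and 4 in untreated. The cycling sub-cluster had 51, 26 and 68 cells, so its GelMA level rests on few cells.

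Lama4 and Lamb1 were split between vessel types in the same direction. Lama4 was at 444, 452 and 299 CPM in the Nts and Pgf sub-cluster and at 49.0, 72.6 and 89.3 CPM in venule-type cells. Lamb1 was at 322, 252 and 156 CPM in the first and at 32.7, 27.2 and 81.8 CPM in the second. In the untreated wound these Lamb1 levels came from 26 and 11 UMIs, and their counting intervals overlapped. Lama4 made up 61.4, 53.8 and 44.6% of the Lama4 and Lama5 UMIs in the Nts and Pgf sub-cluster and 10.3, 12.3 and 18.8% in venule-type cells, and the intervals of the 2 shares did not overlap in any library. Lama5 and Lamb2 did not share that split: Lama5 was at 279, 389 and 371 CPM in the Nts and Pgf sub-cluster and at 425, 517 and 387 CPM in venule-type cells, and Lamb2 at 122, 337 and 108 CPM in the first and at 221, 290.2 and 186 CPM in the second, with overlapping intervals in each library.

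Within the Nts and Pgf sub-cluster the log2 ratio of Nid2 was 1.71 [1.02 to 2.46] for AN-GelMA over GelMA and -1.27 [-2.03 to -0.57] for GelMA over untreated. Lamc1 was at 1346, 715 and 712 CPM there in the AN-GelMA, GelMA and untreated wounds, with log2 ratios of 0.91 [0.50 to 1.33] for AN-GelMA over GelMA, 0.01 [-0.45 to 0.45] for GelMA over untreated and 0.92 [0.58 to 1.26] for AN-GelMA over untreated. Lamb2 had a ratio of -1.47 [-2.41 to -0.58] for AN-GelMA over GelMA. In this sub-cluster 33.4%, 32.1% and 27.8% of features were past 1.5-fold in those 3 comparisons. In venule-type cells Lamc1 was at 294, 336 and 298 CPM, with a ratio of -0.19 [-0.89 to 0.51] for AN-GelMA over GelMA, the opposite sign to the whole class. With the sub-clusters drawn mostly from 1 library left out, an alternative chosen after seeing the data, the class-wide Nid2 ratio for AN-GelMA over GelMA was 1.93.

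In skeletal muscle the Nid2 UMIs lay almost wholly in 1 kind of fibre. Nid2 had 48, 12 and 12 UMIs in the AN-GelMA, GelMA and untreated wounds, which is 198, 8.68 and 51.4 CPM, and Nid1 had 0, 8 and 4 UMIs. The sub-cluster led by Myh3 and Myh8, myosins of embryonic and regenerating fibres, and Mymk, a myoblast fusion factor, held 48, 11 and 11 of the Nid2 UMIs and made up 45.2%, 6.28% and 36.8% of the class. Its Nid2 level was 357 CPM [263 to 473], 114 CPM [56.8 to 204] and 99.3 CPM [49.6 to 178]. The 48 UMIs of the AN-GelMA wound came from 16 cells. In the GelMA wound 264 muscle cells belonged to a sub-cluster led by Myh4, a myosin of fast adult fibres, where 0 Nid2 UMIs were counted.

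The difference between wounds in muscle Nid2 was therefore read in the class and in that sub-cluster. Across the class the log2 ratio of Nid2 was 4.51 [3.58 to 5.56] for AN-GelMA over GelMA, -2.57 [-3.85 to -1.28] for GelMA over untreated and 1.94 [1.01 to 2.99] for AN-GelMA over untreated. Within the Myh3 sub-cluster it was 1.65 [0.68 to 2.74], 0.20 [-1.15 to 1.54] and 1.85 [0.88 to 2.94], with 42.0%, 37.8% and 32.1% of features past 1.5-fold. The AN-GelMA wound was thus higher than both others within the sub-cluster, while GelMA and untreated differed there by less than the counting error.

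Muscle also held Lamb2, Lamc1 and Lama5. Lamb2, whose chain is known from the neuromuscular junction, was at 161, 221 and 163 CPM, Lamc1 at 326, 203 and 257 CPM and Lama5 at 157, 123 and 189 CPM. In a sub-cluster of 44 cells led by Myh7 and Myl2, myosin genes of slow fibres, which was found in the GelMA wound alone, Lamb2 stood at 555 CPM and 0 Lama5 UMIs were counted. Of the 4 muscle members with at least 20 UMIs, Nid2 and Lamc1 were at least 1.5 times higher in AN-GelMA than in GelMA, with 44.8% of features past that size (18.2% higher and 26.6% lower). For GelMA over untreated Nid2 and Lama5 were lower, with 42.7% of features past it (26.1% higher and 16.6% lower), and for AN-GelMA over untreated Nid2 was higher, with 25.3% past it (13.1% higher and 12.2% lower). Without the sub-clusters drawn mostly from 1 library the Lama5 ratio for GelMA over untreated was 0.051, against -0.62 in the whole class. Hair marker transcripts summed to 49.5, 947 and 329.9 CPM in the class, and their part was not tested.

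The mural class did not hold the same cells in each wound: a sub-cluster led by Col11a1 and Adamts18 had 1, 23 and 1 cells, and a cycling one led by Nusap1 and Spdl1 had 10, 11 and 32 cells. The class carried Lama5, Lamb2, Lamc1 and both nidogens, on few cells. Lamc1 was at 461, 372 and 728 CPM, Nid1 at 260.0, 130.3 and 288 CPM and Nid2 at 189, 177 and 135 CPM in the AN-GelMA, GelMA and untreated wounds. Lamb2 was at 260.0, 363 and 207 CPM and Lama5 at 437, 261 and 288 CPM. Of 6 members with at least 20 UMIs, Nid1, Lama4 and Lama5 were at least 1.5 times higher in AN-GelMA than in GelMA, each with an interval that included no difference, and 38.7% of features were past that size (20.1% higher and 18.5% lower). For GelMA over untreated Lamb2 was higher and Nid1, Lama4 and Lamc1 lower, with 41.9% of features past it (18.6% higher and 23.3% lower). For AN-GelMA over untreated Lama5 was higher, at 0.60 [-0.12 to 1.33], an interval that included no difference, and past 1.5-fold in 5 of 10 alternative settings, and Lamc1 was lower, with 33.8% past it (15.3% higher and 18.5% lower).

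Without the Col11a1 sub-cluster the ratios of Lama4 and Lama5 for AN-GelMA over GelMA were 0.38 and 0.34, inside 1.5-fold. Lama5 was highest within the mural class in a sub-cluster of 12, 16 and 12 cells led by Trpv1, Sorbs2 and Kcnh2, which scored for smooth muscle markers. It stood at 1435 CPM there from 63 UMIs over all libraries, and 0 Nid2 UMIs were counted. Fibroblast markers summed to 7728, 5065 and 7777 CPM in the mural class and hair markers to 0, 1844 and 80.9 CPM, and their part in the mural differences was not tested.

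**Figure D4:**
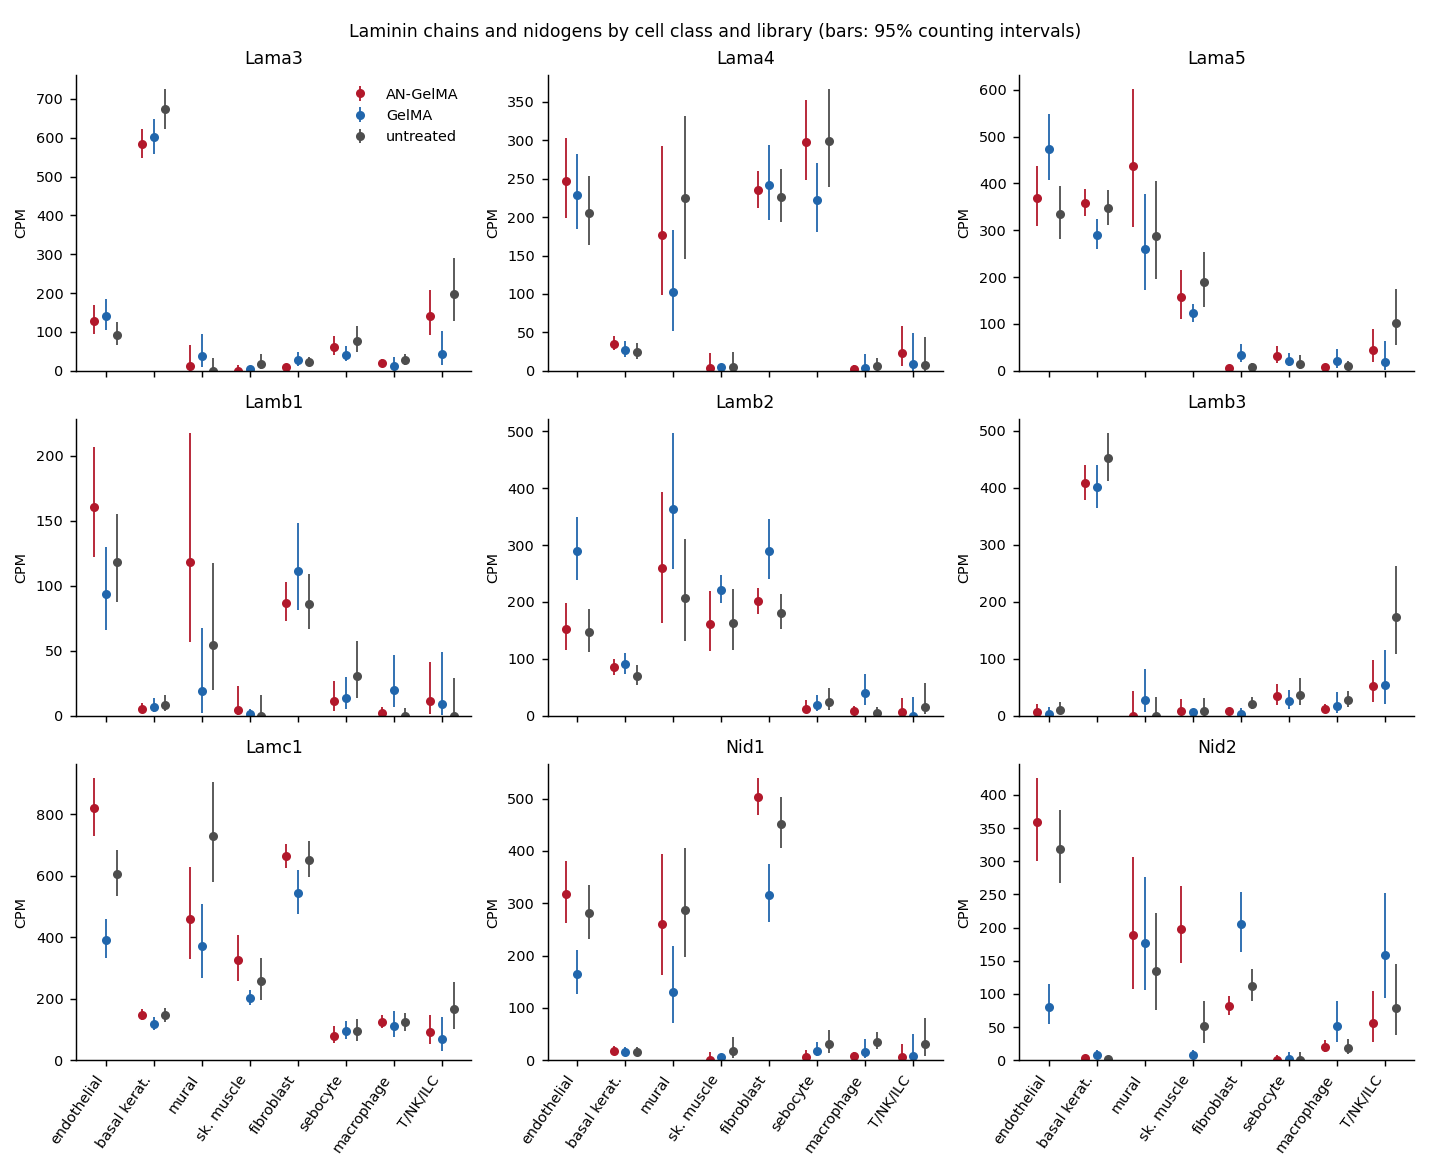
CPM of each member in 8 cell classes; points are the AN-GelMA, GelMA and untreated libraries, from left to right in each class, and lines 95% counting intervals. Lama3 and Lamb3 stand out in basal keratinocytes, Nid1 and Lamc1 in fibroblast, endothelial and mural cells, and Nid2 is low in GelMA endothelium (80.8 CPM) and high in AN-GelMA muscle (198 CPM).

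Across classes the chains had distinct orders. Lama4 was highest in sebocytes, at 298, 222 and 299 CPM, fibroblasts, at 235, 241 and 226 CPM, endothelial cells and mural cells, each range overlapping the next in that order, and was at most 35.1 CPM in basal keratinocytes. Lama5 had overlapping ranges in endothelial cells, basal keratinocytes and mural cells, and was lower in muscle. Nid1 and Lamc1 were highest in fibroblasts, endothelial cells and mural cells, each range again overlapping the next in that order, and fibroblasts had 503, 316 and 452 CPM of Nid1. Macrophages had 125, 112 and 123 CPM of Lamc1. Adipocytes, which reached 50 cells in the GelMA library alone, had 487 CPM of Lama4, 475 CPM of Lamc1 and 316 CPM of Nid1.

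Because the classes differed in number, a gene's UMIs came from different cells in different wounds. In the whole libraries Nid1 was at 98.6, 22.3 and 90.6 CPM, and fibroblasts held 61.1, 29.5 and 45.9% of its UMIs; at that level fewer cells of a type and less RNA per cell cannot be told apart. Lamb1 was at 28.2, 30.8 and 31.1 CPM in the whole libraries, yet 1.89, 48.5 and 7.69% of its UMIs came from an unnamed cluster led by Tbx1, Lhx2 and Lgr5, genes of the hair follicle, with 198, 1311 and 245 cells. In that cluster Lamb1 was at 27.7, 178 and 84.1 CPM and Lama5 at 487, 517 and 509 CPM. Endothelial cells held 25.0, 9.42 and 30.5% of Nid2 UMIs, and basal keratinocytes 47.4, 37.5 and 46.5% of Lamb3 UMIs.

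**Figure D5:**
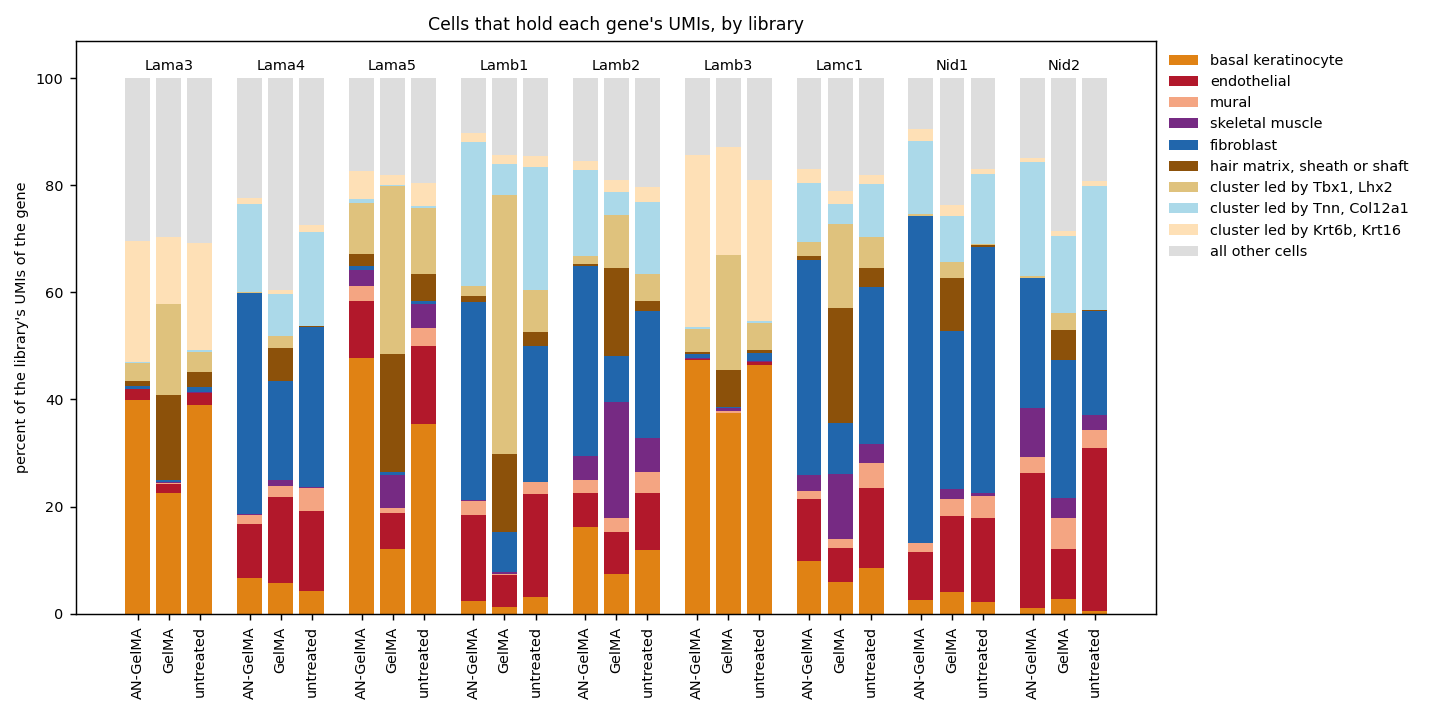
Percent of each gene's UMIs (vertical axis) held by cell classes or clusters (colours) in the AN-GelMA, GelMA and untreated libraries (columns). In the GelMA library 48.5% of Lamb1 UMIs lie in the cluster led by Tbx1 and Lhx2, against 7.69% in the untreated library, and 1.89% do in the AN-GelMA library.

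The genes most like each member were sought among 11167 genes over 39 class and library points, which share libraries and depth, by Pearson correlation of log2(CPM + 10), given as a description. Among the 3 genes most like Lamb3 was Krt15, a keratin of basal cells (0.89). Lama3 was closest to Dgka, a diacylglycerol kinase (0.83), and to Itgb4, the integrin beta chain of hemidesmosomes (0.83). Lama5 was closest to Bcam, a receptor of the laminin alpha 5 chain (0.90), and to Itga3, an integrin chain that binds laminin (0.86). Lamb1 was closest to Col4a1 (0.86) and Col4a2 (0.84), which encode type IV collagen chains, and Lamb2 to Serpinh1, a collagen chaperone (0.88). Nid1 was closest to Sparc, a collagen-binding matrix protein (0.93), Lamc1 to Phldb1 (0.91), Lama4 to Tgfbr3, a co-receptor of transforming growth factor beta (0.86), and Nid2 to Ccdc102a (0.87).

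Of 41 other basement membrane genes, 20 had at least 20 UMIs in endothelial cells of AN-GelMA and GelMA, and 6 of these were at least 1.5 times higher and 4 lower in AN-GelMA, against 30.1% of all features past that size, 13.5% higher and 16.6% lower. The highest were Col15a1, a collagen at the outer face of basement membranes (647 CPM in AN-GelMA and 305 CPM in GelMA, log2 ratio 1.08), Mmp2, a gelatinase (179 CPM in AN-GelMA and 93.9 CPM in GelMA, log2 ratio 0.93), and Pxdn, the peroxidase that crosslinks type IV collagen (845 CPM in AN-GelMA and 477 CPM in GelMA, log2 ratio 0.82). The lowest were Itga1, a collagen receptor chain (177 CPM in AN-GelMA and 430.2 CPM in GelMA, log2 ratio -1.28), Agrn, a heparan sulphate proteoglycan (147 CPM in AN-GelMA and 302 CPM in GelMA, log2 ratio -1.04), and Bcam (139 CPM in AN-GelMA and 269 CPM in GelMA, log2 ratio -0.95). For GelMA over untreated 7 of 21 were past that size, with 29.4% of all features past it (16.9% higher and 12.5% lower): 2 were higher, Itga1 and Bcam, and 5 lower, among them Col18a1, Col15a1 and Col4a1 (1739 CPM in GelMA and 2731 CPM in untreated, log2 ratio -0.65). For AN-GelMA over untreated 1 of 21 was past 1.5-fold, with 19.1% of all features past it, Agrn (147 CPM in AN-GelMA and 238 CPM in untreated, log2 ratio -0.70).

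In basal keratinocytes 3 of 31 other genes were higher and 2 lower in AN-GelMA than in GelMA, against 22.0% of all features past that size, 8.08% higher and 13.9% lower. Pxdn was higher (99.4 CPM in AN-GelMA and 31.2 CPM in GelMA, log2 ratio 1.67), and it was lower in GelMA than in the untreated wound (31.2 CPM in GelMA and 133 CPM in untreated, log2 ratio -2.09). Itga3 was lower in AN-GelMA than in GelMA (315 CPM in AN-GelMA and 516 CPM in GelMA, log2 ratio -0.71). Lama1, a laminin alpha chain of embryonic basement membranes that is not among the 9, was also lower (44.4 CPM in AN-GelMA and 82.4 CPM in GelMA, log2 ratio -0.89). In muscle 11 of 22 others were higher and 5 lower in AN-GelMA than in GelMA, against 44.8% of all features past that size, 18.2% higher and 26.6% lower. Npnt, an integrin ligand, was the highest (256 CPM in AN-GelMA and 47.0 CPM in GelMA, log2 ratio 2.44) and Dag1, the dystroglycan core protein, the lowest (37.1 CPM in AN-GelMA and 107 CPM in GelMA, log2 ratio -1.53). In mural cells 8 of 19 were higher and 0 lower in AN-GelMA than in GelMA, against 38.7% of all features past that size, 20.1% higher and 18.5% lower. The highest was Col4a2 (1205 CPM in AN-GelMA and 456 CPM in GelMA, log2 ratio 1.40); with 1 library per group no test could be run.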

How the data were processed

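Single-cell RNA was measured in fixed cells of 3 libraries with probe-based 10x Flex chemistry. The deposited values are UMI counts per gene and cell that the authors made with Cell Ranger (header software version 10.0.0, build GRCm39), per the file headers and the submitters' processing notes. The libraries held 9648, 11449 and 6073 barcodes (AN-GelMA, GelMA, untreated) with 14156692, 21613482 and 8945496 UMIs. Cells with under 400 UMIs, under 250 genes or over 10% mitochondrial counts were removed. Scrublet called 0 doublets, so the 5% of cells with the highest scores were removed instead. Cells were clustered by the Leiden method with scanpy 1.11.5 and igraph 0.11.9, and named from marker lists. Clustering used 1987 of 2000 variable genes, leaving out the 9 members and other basement membrane genes. Counts were summed per class and library and given as CPM of all counts of the class. Ratios carry exact conditional 95% intervals. They were run on simulated independent counts, the model they assume, so clumping of UMIs within cells was not checked. Features with at least 20 UMIs over the 2 libraries were compared, and 1.5-fold either way was the size used to count them. A count of 0 allows up to 3 UMIs. Other basement membrane genes were named from the 3 highest and 3 lowest past 1.5-fold with at least 50 UMIs, per class and comparison, and genes of like pattern among those at 50 CPM or more in at least 1 class and library with at least 50 cells. One gene of like pattern is not reported here. The members and lists were chosen with earlier results of these data known. TMM scaling used edgeR 4.0.16, as an alternative only. Other alternatives changed filters, doublets, depth, clustering and the cells used.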

Additional observations from a re-analysis of the deposited data

Results flagged for a closer look

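Nid2 moved in opposite directions in different cell classes, which is why it is listed here. For AN-GelMA over GelMA its log2 ratio was 2.15 [1.58 to 2.76] in endothelial cells and -1.34 [-1.74 to -0.92] in fibroblasts, a difference of 3.49 on the log2 scale. In skeletal muscle the ratio was 4.51 [3.58 to 5.56], which differs from that in fibroblasts by 5.85. For GelMA over untreated the ratio was 0.88 [0.43 to 1.33] in fibroblasts and -1.98 [-2.59 to -1.41] in endothelial cells, a difference of 2.85. Fibroblasts had 81.2, 205 and 112 CPM of Nid2 in the AN-GelMA, GelMA and untreated wounds, from 128, 85 and 86 UMIs, and 33.9% of fibroblast features were past 1.5-fold for AN-GelMA over GelMA and 31.9% for GelMA over untreated. The fibroblast class was made of unlike clusters: one led by Nos2 and Saa3 held 377 of 1400 AN-GelMA, 20 of 414 GelMA and 187 of 672 untreated fibroblasts. In the other cluster alone, led by Pi16 and Sfrp4, Nid2 was at 70.2, 209 and 122 CPM, with a ratio of -1.57 [-2.05 to -1.10] for AN-GelMA over GelMA and 0.77 [0.28 to 1.27] for GelMA over untreated. In the unnamed cluster led by Tnn and Col12a1 Nid2 was at 132, 176 and 199.6 CPM. Some leukocyte classes also had their highest level in the GelMA wound. T, NK or innate lymphoid cells had 56.7, 159 and 78.9 CPM of Nid2, and macrophages 20.1, 51.9 and 18.3 CPM. In both classes the GelMA interval overlapped those of the other wounds. Langerhans cells held 0 Nid2 UMIs in each library, and neutrophils 0 in AN-GelMA and 1 in GelMA. The GelMA intervals of fibroblasts [164 to 254] and T, NK or innate lymphoid cells [94.4 to 252] overlapped. The part of RNA from other cells in the fibroblast difference was not tested. The differences between classes were not tested, since each group has 1 library.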

How the results depend on the processing

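Each ratio past 1.5-fold in the 4 classes was recomputed under 8 to 13 alternatives, of 13 in all, 11 of them planned and 2 chosen after seeing the data. An alternative gave no value where a class had under 50 cells (under 20 with 1 sub-cluster per class) or a member too few UMIs, and cells without Krt5 or Krt14 were not used for basal keratinocytes. Another added later, the largest fibroblast cluster alone, kept Nid2 in fibroblasts past 1.5-fold in both comparisons. Of 24 ratios past 1.5-fold, 11 stayed past it in the same direction under every alternative that gave a value. Nid2 in endothelium stayed past it in 12 of 12, between 1.58 and 3.11 for AN-GelMA over GelMA and between -2.80 and -1.37 for GelMA over untreated, and Nid2 in muscle in 11 of 11 for AN-GelMA over GelMA, between 1.65 and 6.13. With 1 sub-cluster per class, the members' median in endothelium for AN-GelMA over GelMA moved to -0.24, that in muscle for GelMA over untreated to 0.32, and 3 ratios changed sign: Lamc1 in endothelium (-0.19 for AN-GelMA over GelMA and 0.17 for GelMA over untreated) and Nid2 in muscle (0.20 for GelMA over untreated). That setting used venule-type endothelial cells and Myh3 muscle cells alone. With doublets kept, the median in muscle moved to -0.10 for AN-GelMA over GelMA and -1.06 for GelMA over untreated. Thinning to 500 UMIs moved the muscle median for AN-GelMA over GelMA to -0.049 and turned endothelial Lama3 for GelMA over untreated to -0.11. Without sub-clusters drawn mostly from 1 library, Lama5 in muscle for GelMA over untreated was 0.051. The causes were not tested, apart from the cells each setting left out by construction. Without a filter on low counts the median of all features in muscle shifted by 0.35 for AN-GelMA over GelMA and by -0.32 for GelMA over untreated. No paired analysis was possible because the 3 groups are single libraries. Depth limits the mural class most, with 66, 100 and 102 cells.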

Other observations

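Keratinocytes of an unnamed cluster led by Krt6b and Krt16, keratins of activated wound epidermis, also carried the epidermal chains. Lama3 was at 404, 221 and 386 CPM and Lamb3 at 340.1, 142 and 284 CPM there in the AN-GelMA, GelMA and untreated wounds. The cluster held 22.6, 12.5 and 20.0% of Lama3 UMIs and 32.2, 20.1 and 26.2% of Lamb3 UMIs. In muscle the sub-cluster led by Th and Pdk4 had 561, 109 and 472 CPM of Lamc1 and 0 Nid2 UMIs in every library.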
